A study of Mus musculus with 48 samples.

Results

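The 34 genes described here encode enzymes and carriers that break down fatty acids, together with Bdh1, the last enzyme of ketone body synthesis. They were taken as a given list of mouse symbols and matched by Ensembl identifier to rows of the deposited gene counts, where each of the 34 matched 1 of 56748 rows. Gene expression had been measured by RNA sequencing in the liver, the brown adipose tissue (BAT) and the epididymal white adipose tissue (eWAT) of male littermate mice. The mice either carried the hepAGT-/- genotype (KO), a deletion of angiotensinogen (Agt) in hepatocytes, or were hepAGT+/+ (WT). All of them, controls included, ate a Western diet with 21% milk fat and 0.2% cholesterol over 12 weeks. The housing temperature was 20 to 22 °C, called RT (room temperature), or 30 °C, called TN (thermoneutrality), at which little heat has to be made to hold body temperature. Tissue, genotype and housing made 12 groups of 4 libraries, 48 in all, and the labels call the libraries of a group biological replicates. The driver of the deletion and the age of the mice are not given in the sources used here.

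Long-chain fatty acids are first joined to coenzyme A by acyl-CoA synthetases such as Acsl1 and Acsl5, and enter mitochondria as carnitine esters made by Cpt1 enzymes and undone by Cpt2. Inside, the acyl-CoA dehydrogenases, the trifunctional protein (Hadha and Hadhb), Hadh, Echs1 and Acaa2 shorten the chain by repeated rounds of oxidation, hydration, oxidation and thiolysis, and Etfa, Etfb and Etfdh pass the electrons of the first step to the respiratory chain. Peroxisomes shorten very long and branched chains with a separate set that includes Acox2, Ehhadh, Hsd17b4 and the thiolases Acaa1a and Acaa1b. Brown fat burns fatty acids to make heat and is driven by cold, the liver oxidizes them and exports ketone bodies, and white fat mainly stores them.

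Total counts per library ran from 23.7 to 36.5 megacounts in liver, from 25.3 to 39.4 megacounts in BAT and from 28.7 to 43.7 megacounts in eWAT. Agt itself was examined first, as a check of the genotype labels. In liver at RT, Agt stood at 336, 434, 424 and 276 CPM (counts per megacount, with library totals scaled by edgeR's TMM factors) in the 4 WT libraries and at 202, 150.2, 143 and 174 CPM in the 4 KO libraries (log2 change -1.14, SE 0.18, edgeR adjusted p 0.0096). At TN it stood at 504, 309, 371 and 454 CPM in WT and at 164, 207, 172 and 125 CPM in KO (log2 change -1.29, SE 0.18, edgeR adjusted p 0.00113). Each KO library was lower than each WT library of its temperature, and Agt was still detected in all of them. The summed level of 6 hepatocyte markers was 47300 to 85700 CPM in liver, that of 5 brown adipocyte markers 3570 to 13600 CPM in BAT, and that of 5 general adipocyte markers 18400 to 37100 CPM in eWAT, where brown adipocyte markers summed to 9.73 to 35.4 CPM. Some fat libraries also held transcripts of neighbouring or foreign tissue: skeletal muscle markers reached 6220 CPM in BAT, hepatocyte markers reached 2290 CPM in BAT and 4140 CPM in eWAT, and epididymis markers reached 929 CPM in 1 eWAT library of WT at RT. In such bulk samples, fewer cells of a type and less RNA per cell cannot be told apart.

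Promoters of 29 of the 34 genes were matched by symbol in RefSeq's GRCm38.p6 table. The stretches before the start sites of 4 genes that the results below turn on are shown, on the strand of the gene and without bases that the Ensembl annotation places in an exon, with the nuclear receptor hexamer AGGTCA (or its reverse complement) in capitals. Acsl5 (chr19:55253119-55253368, plus strand) is shown as the gene that moved most with housing in BAT, and Hadhb (chr5:30155163-30155247, plus strand) because this gap lies between the oppositely oriented starts of Hadha and Hadhb, 273 bases apart. Acadvl (chr11:70015429-70015678, minus strand) is shown for the hexamer it holds, and Cpt1a (chr19:3323051-3323284, plus strand) as the carnitine acyltransferase of liver. The Acsl5 and Cpt1a windows lie between exons of the genes as Ensembl annotates them, since Ensembl has earlier starts for both.
Acsl5: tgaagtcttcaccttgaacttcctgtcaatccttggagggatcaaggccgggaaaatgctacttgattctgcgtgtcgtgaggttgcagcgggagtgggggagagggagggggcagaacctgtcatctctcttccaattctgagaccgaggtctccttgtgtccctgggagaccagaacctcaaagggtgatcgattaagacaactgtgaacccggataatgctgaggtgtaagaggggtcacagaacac
Hadhb: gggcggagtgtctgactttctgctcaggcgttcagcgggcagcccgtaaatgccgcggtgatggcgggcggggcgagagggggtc
Acadvl: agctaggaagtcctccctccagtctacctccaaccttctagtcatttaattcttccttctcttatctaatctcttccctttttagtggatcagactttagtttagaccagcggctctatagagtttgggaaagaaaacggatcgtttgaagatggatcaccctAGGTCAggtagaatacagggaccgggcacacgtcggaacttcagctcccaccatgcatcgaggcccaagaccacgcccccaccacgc
Cpt1a: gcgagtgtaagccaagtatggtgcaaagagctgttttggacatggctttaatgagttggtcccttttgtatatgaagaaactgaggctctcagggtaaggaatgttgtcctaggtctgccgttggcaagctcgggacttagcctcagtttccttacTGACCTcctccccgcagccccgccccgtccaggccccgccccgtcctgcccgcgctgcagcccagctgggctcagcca

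The hexamer lay 87 bases before the start of Acadvl and 94 before that of Cpt1a, where it reads TGACCT on the gene's strand, and it was absent from these letters of Acsl5 and Hadhb. In windows from 250 bases before to 50 after the start, AGGTCA on either strand occurred in 4 of the 29 genes (Cpt1a, Acadvl, Acadm and Echs1), against 18.13% of all 27025 genes in the table. A direct repeat of the hexamer with 1 base between its copies (direct repeat 1, searched on both strands, each match also counting as a match of the hexamer), the element bound by peroxisome proliferator-activated receptors, occurred in none of the 29 and in 0.05% of all genes. These are matches of letters in a short window and say nothing of binding.

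Nearly all of the 34 genes had their highest mean level in liver or in BAT. Levels across tissues are given as CPM scaled by TMM over all 48 libraries, so they differ slightly from the within-tissue values used further on. By mean level, 20 genes were highest in BAT and 14 in liver, and with plain library totals Acadsb moved from BAT to eWAT, leaving 19 in BAT and 1 in eWAT. Acsl5, among the 14, ran from 48.8 to 969.2 CPM in BAT and from 374.9 to 752.3 CPM in liver. Its place thus rests on the average over housing, which is taken up below. In edgeR's test over 48 libraries, averaged over genotype and housing, 14 members were called higher and 20 lower in liver than in BAT at an adjusted p under 0.05, where 31.6% and 37% of all genes were. The median log2 difference of the members was -1.04, against -0.08 over all genes. Against eWAT, liver was higher for 29 and lower for 2 (35.5% and 38.3% of all genes), and BAT was higher for 27 and lower for 2 (29.2% and 31.1%). The members' medians were 1.28 and 1.75 in these comparisons, against -0.05 and -0.02 over all genes.

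Most genes of the mitochondrial chain had their highest mean level in BAT. Hadhb, the thiolase subunit of the trifunctional protein, ran from 1618 to 6084 CPM in BAT (median 3011), from 148.8 to 277.7 CPM in liver (median 213) and from 145.1 to 238.9 CPM in eWAT (median 203.2). BAT thus lay wholly above both other tissues, while liver and eWAT overlapped and their difference was not called (log2 difference 0.08, SE 0.09, edgeR adjusted p 0.43). Acadl, the long-chain acyl-CoA dehydrogenase, had the same order, at 1458 to 4002 CPM in BAT (median 2586), 201.2 to 380.1 CPM in liver (median 293.8) and 163.3 to 289.7 CPM in eWAT (median 245.3). Crat, which moves acetyl groups between carnitine and coenzyme A, was lowest in liver, at 39.5 to 160.0 CPM (median 62.8) against 442.1 to 1187 CPM in BAT (median 831.4) and 176.9 to 381.9 CPM in eWAT (median 216.3). Crat and Acadsb were the members called lower in liver than in eWAT, by log2 differences of -1.75 (SE 0.11) and -0.32 (SE 0.07). Per kilobase of exon, Acaa2, Acadl and Acadvl ranked 1, 2 and 3 in BAT, and Etfa and Acsl1 ranked 1 and 2 in eWAT.

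The peroxisomal genes and the ketone body gene had their highest mean level in liver. Acaa1b, a peroxisomal thiolase, ranged from 1692 to 4528 CPM in liver (median 2708), from 15.2 to 116.5 CPM in BAT (median 56.2) and from 56.7 to 163.8 CPM in eWAT (median 86.6), and ranked 1 per kilobase in liver. Its transcripts share 22.6% of their 100-base windows with Acaa1a, so reads between this pair may have been split or lost in counting. Bdh1, which interconverts acetoacetate and beta-hydroxybutyrate, stood at 201.6 to 383.3 CPM in liver (median 248.5) and at no more than 7.73 CPM in BAT and 11.9 CPM in eWAT. Acadsb, Hsd17b4, Acaa1a, Acox2 and Bdh1 were not called between the fat depots, with a log2 difference of 0.02 (SE 0.07, edgeR adjusted p 0.877) for Acadsb.

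The carnitine palmitoyltransferases divided by tissue. Cpt1a, the liver form that controls entry into mitochondria, ran from 343.4 to 1018 CPM in liver (median 540.1), from 58.2 to 147.8 CPM in eWAT (median 111.2) and from 15.6 to 40.1 CPM in BAT (median 28.6), with no overlap between the 3 tissues. Cpt1a was 1 of the 2 members called lower in BAT than in eWAT (log2 difference -1.93, SE 0.11), the other being Acaa1b at -0.67 (SE 0.17). Hepatocyte markers reached 4140 CPM in eWAT and 2290 CPM in BAT, and their part in the Acaa1b difference was not tested. Cpt1b, the muscle form, was found at 4.54 to 20.7 CPM in BAT (median 12.9) and at no more than 0.873 CPM in liver, and in eWAT it had counts in 2 of 16 libraries. Cpt1b was below the filter on low counts in eWAT and was not tested within that tissue, so 33 members were tested there against 34 in liver and in BAT. Cpt1a and Cpt1b share no 100-base window of transcript sequence. The plot of levels by tissue shows these orders for all 34 genes.

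**Figure D1:**
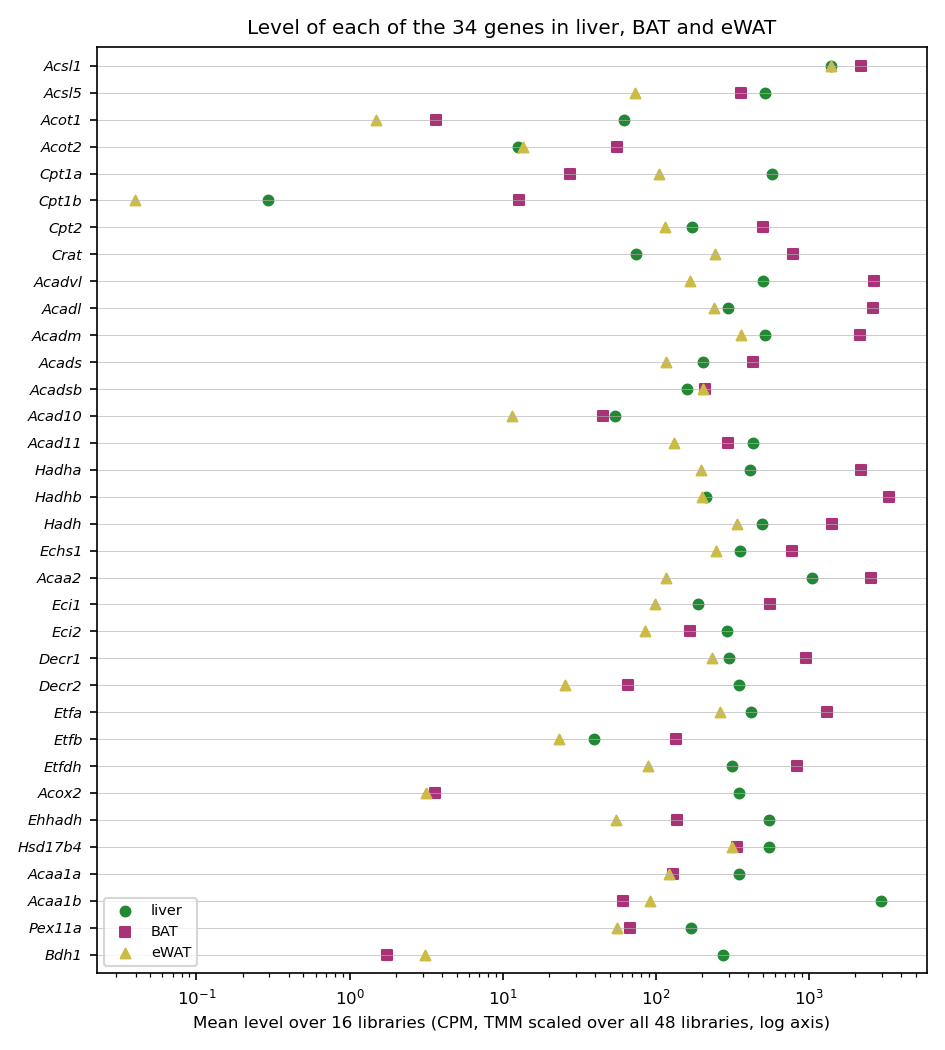
Mean level of each of the 34 genes over the 16 libraries of liver, BAT and eWAT, in CPM (TMM scaled over 48 libraries) on a log axis. Hadhb reached its highest mean in BAT, and Acaa1b, Bdh1 and Cpt1a reached theirs in liver.

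Summed over the 34 genes, levels were highest in BAT at RT. In BAT the sum was 28768, 43355, 39824 and 38259 CPM in WT at RT and 23732, 14814, 14929 and 15829 CPM in WT at TN, so the housing groups did not overlap. In KO it was 28529, 31075, 31405 and 24145 CPM at RT and 13043, 21123, 19504 and 22256 CPM at TN, again with no overlap. In liver the group means were 13085 ± 1082 CPM (SD, n = 4) in WT and 11052 ± 698 in KO at RT, and 15226 ± 2614 in WT and 10836 ± 699 in KO at TN. In eWAT they were 7409 ± 574 CPM in WT and 7726 ± 492 in KO at RT, and 7038 ± 683 in WT and 6453 ± 1036 in KO at TN. The liver groups at RT were separated by a narrow gap (11738 CPM for the lowest WT and 11707 CPM for the highest KO library), those at TN overlapped at WT replicate 24 (11376 CPM), and the eWAT genotype groups overlapped at both temperatures.

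**Figure D2:**
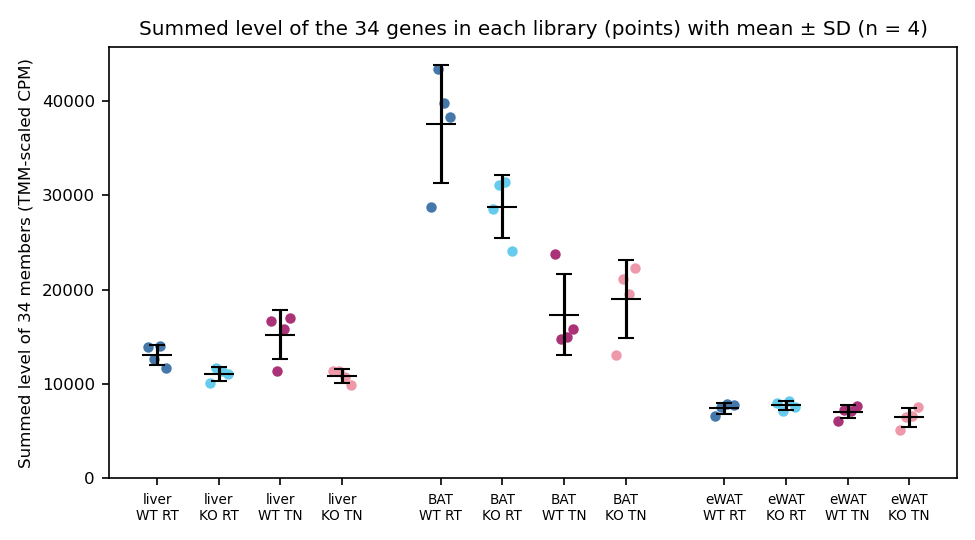
Summed level of the 34 genes (TMM-scaled CPM, scaled within each tissue) in each library (points) by tissue, genotype and housing, with mean and SD (n = 4). The WT libraries of BAT at RT reach 43355 CPM, and BAT at TN stays at or below 23732 CPM in both genotypes.

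How housing temperature bears on these genes was compared first in BAT. In WT mice, 25 of the 34 members fell at TN and none rose (edgeR adjusted p under 0.05 over 18032 genes), where 16.7% of all genes tested were called lower and 15.9% higher. An unadjusted p under 0.05 was found for 26 members and for 42.7% of all genes, and the members' median log2 change (TN minus RT) was -0.92, against 0.11 over all genes. For 21 members the 4 TN libraries lay wholly below the 4 RT libraries, which was so for 14.3% of all genes, and for none wholly above (12.9% of all genes). In KO mice, 12 members fell and none rose (8.52% and 6.64% of all genes), with a median of -0.51 against 0.04. For 12 the TN libraries in KO lay wholly below (11.8% of all genes) and for none wholly above (9.54%), and 19 had an unadjusted p under 0.05 (27.9% of all genes). The overlap of the calls was 12 of the 12 in KO and 12 of the 25 in WT. The other 13 were not called in KO, and none of the members had a called difference between the genotypes in their response to housing.

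Among the activating enzymes, Acsl5 was the member that fell furthest. In WT it stood at 565, 605, 671 and 655 CPM at RT and at 45.3, 58.7, 58.8 and 57.1 CPM at TN, a log2 change of -3.50 (SE 0.22, edgeR adjusted p 2.37e-08). In KO it stood at 925, 455, 591 and 517 CPM at RT and at 53.6, 69.2, 45.6 and 62.1 CPM at TN, a log2 change of -3.43 (SE 0.22, edgeR adjusted p 3.21e-08). Every TN library lay far below every RT library in both genotypes, and the group means of log2 CPM went from 9.28 to 5.79 in WT and from 9.23 to 5.84 in KO. Acsl1, another long-chain acyl-CoA synthetase, was not called in either genotype (log2 changes of -0.37 in WT and -0.25 in KO). Acot1, a thioesterase that releases fatty acids from coenzyme A, stood in WT at 1.93, 11.2, 9.6 and 0.886 CPM at RT and at 1.86, 0.297, 1.11 and 1.03 CPM at TN. The groups overlapped, and the call of Acot1 (log2 change -2.46, SE 0.87, edgeR adjusted p 0.042) was lost when any 1 of 5 libraries was left out (WT RT replicates 15 and 17, WT TN replicates 1, 6 and 7). It was also lost with no filter on low counts and without the libraries rich in muscle markers described further on, with adjusted p up to 0.182 over the alternatives.

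In the carnitine shuttle, Cpt2 and Crat fell in WT, and neither Cpt1 gene was called. Cpt2, which returns the acyl group to coenzyme A inside mitochondria, stood in WT at 515, 972, 911 and 864 CPM at RT and at 262, 204, 185 and 192 CPM at TN (log2 change -1.95, SE 0.22, edgeR adjusted p 9.98e-06). In KO it stood at 610.0, 659.9, 642 and 509 CPM at RT and at 159, 259, 219 and 311 CPM at TN (log2 change -1.35, SE 0.22, edgeR adjusted p 0.000423). The housing groups of Cpt2 did not overlap in either genotype. Crat fell in WT from 841, 1111, 1005 and 825 CPM to 586, 444, 428 and 529.7 CPM (log2 change -0.93), with no overlap, and was not called in KO (-0.56, edgeR adjusted p 0.0664). Cpt1a stood in WT at 22.4, 29.3, 18.2 and 19.3 CPM at RT and at 19, 27.1, 26 and 36.8 CPM at TN, with the groups overlapping (log2 change 0.29, edgeR adjusted p 0.41). Cpt1b, at 11.5, 9.08, 6.56 and 4.22 CPM at RT and 10, 11.1, 12.9 and 11 CPM at TN in WT, overlapped as well (log2 change 0.52, edgeR adjusted p 0.106).

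Of the 7 acyl-CoA dehydrogenases, which differ in the chain length they accept, 6 fell in WT and 4 in KO. Acadl stood in WT at 2750, 3746, 3735 and 3288 CPM at RT and at 1983, 1434, 1416 and 1451 CPM at TN (log2 change -1.11, SE 0.18, edgeR adjusted p 0.000205). In KO, Acadl stood at 3039, 3037, 3352 and 2692 CPM at RT and at 1358, 2143, 1897 and 1973 CPM at TN (log2 change -0.72, SE 0.18, edgeR adjusted p 0.0106). Neither pair of groups overlapped. Acadm, the medium-chain enzyme, stood in WT at 2293, 3455, 3096 and 2915 CPM at RT and at 2007, 1284, 1219 and 1198 CPM at TN (log2 change -1.04, SE 0.22, edgeR adjusted p 0.0016), and was not called in KO (-0.52, edgeR adjusted p 0.126). The changes of the other called dehydrogenases in WT were -1.52 for Acadvl, the very-long-chain enzyme, -1.50 for Acad11, -1.05 for Acads and -0.88 for Acadsb. Acad10 was not called in either genotype (-0.29 in WT and 0.17 in KO).

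The steps from hydration to thiolysis fell as a whole in WT, where 5 of 5 members were called, and 1 of 5 was called in KO. Hadha, the hydratase and dehydrogenase subunit of the trifunctional protein, stood in WT at 2523, 4043, 3593 and 3933 CPM at RT and at 1507, 814, 868 and 948 CPM at TN (log2 change -1.77, SE 0.26, edgeR adjusted p 8.27e-05). In KO, Hadha stood at 2478, 2835, 2867 and 1884 CPM at RT and at 691, 1540, 1028 and 1288 CPM at TN (log2 change -1.15, SE 0.25, edgeR adjusted p 0.00493). Its housing groups did not overlap in either genotype. Hadhb, whose start lies across the gap shown above, changed by -1.28 in WT and was not called in KO (-0.62). Echs1, Acaa2 and Hadh changed by -1.02, -0.96 and -0.88 in WT. The enzymes for unsaturated chains were called in 4 of 4 (WT) and 3 of 4 (KO), led by Decr1, the mitochondrial dienoyl-CoA reductase (-1.33 and -0.86). Decr2 lost its call in WT without WT RT replicate 17 and without the libraries rich in muscle markers described further on (edgeR adjusted p up to 0.0905). In KO, Eci1 lost its call in 10 alternatives (adjusted p up to 0.237). Eci2 lost it in 5 (up to 0.396) and Acads in 5 (up to 0.323). Leaving out KO RT replicate 19 or KO TN replicate 2 or 4 ended each of these calls in KO.

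The 3 electron transfer genes were called lower in WT, and Etfdh, which passes the electrons on to ubiquinone, fell in KO as well. The call of Etfa in WT was lost in a fit to the 8 libraries alone and without any 1 of WT RT replicates 15 and 17 and WT TN replicates 1, 6 and 7 (edgeR adjusted p up to 0.0886). Etfdh stood in WT at 1022, 1433, 1179 and 1055 CPM at RT and at 662, 469, 492 and 401 CPM at TN (log2 change -1.21, SE 0.22, edgeR adjusted p 0.000498). In KO it stood at 952, 1113, 1036 and 667 CPM at RT and at 307, 561, 537 and 583 CPM at TN (log2 change -0.92, SE 0.22, edgeR adjusted p 0.00806), again with no overlap. Of the 6 peroxisomal genes, Hsd17b4 (-1.03), Pex11a (-0.89) and Acaa1a (-0.37) fell in WT, and Pex11a fell in KO (-0.45). The call of Acaa1a was lost in 8 alternatives (edgeR adjusted p up to 0.138), among them without WT RT replicates 17 or 18 or WT TN replicates 1, 7 or 24. That of Pex11a in KO was lost in 10 (up to 0.455), among them without KO RT replicates 10, 14 or 19 or KO TN replicates 2, 3 or 4. Pex11a, which takes part in the division of peroxisomes, stood in WT at 85.7, 82.1, 85 and 74 CPM at RT and at 46.1, 38.6, 46.6 and 45.4 CPM at TN, with a wide gap between the groups. Ehhadh was scattered in WT, at 72.6, 262, 131 and 82.2 CPM at RT and 229, 43.8, 53.1 and 71.7 CPM at TN, and was not called (-0.46), nor was Acaa1b (-0.88, edgeR adjusted p 0.191). Bdh1 was near its floor, at 0 to 1.51 CPM at RT and 1.38 to 2.02 CPM at TN in WT, and was not called (1.40, SE 1.12).

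Cell type markers moved with housing in the same libraries. The 5 brown adipocyte markers summed to 7930 to 13600 CPM at RT and to 3570 to 7590 CPM at TN, and the 5 macrophage markers to 27.5 to 77.0 CPM at RT and 119 to 358 CPM at TN, in both cases with no overlap. The part of these differences in the members' changes was not tested. In WT, skeletal muscle markers summed to 4021 and 4503 CPM in TN replicates 24 and 6, to 6.91 and 9.44 CPM in TN replicates 7 and 1, and to at most 338 CPM at RT. Without the 5 BAT libraries above 1000 CPM of muscle markers (KO RT replicates 14 and 19, KO TN replicate 2, WT TN replicates 24 and 6), 23 members were called lower in WT and 4 in KO, where 2620 and 703 of all 18794 genes tested were. Without the 2 libraries above 1000 CPM of hepatocyte markers (KO TN replicates 2 and 5), the counts were 25 in WT and 5 in KO, where 2837 and 561 of all 19372 genes were. In KO the calls over all genes thus dropped as well (from 1537 lower with all libraries). The 4 and the 5 members called in KO in these fits were not all among the 12 called with all libraries. Acsl5 and Cpt2 kept their calls in both genotypes under both exclusions. Hadha (-0.71, edgeR adjusted p 0.11, and -0.95, edgeR adjusted p 0.0736) lost its call in KO under each, as did Acadl, Acadvl, Acads, Eci1, Eci2, Etfdh and Decr1. Acad11 lost its call in KO without the libraries rich in muscle markers.

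Of 48 other genes of the pathway, taken as a list, 24 fell and 1 rose in WT (16.7% and 15.9% of all genes), and 14 fell and 1 rose in KO (8.52% and 6.64%). The largest falls in WT were those of Fgf21, a hormone released under metabolic stress (-2.42, SE 0.86), Acsl3, another acyl-CoA synthetase (-1.68, SE 0.20), and Slc25a20, the carrier that brings acylcarnitines into mitochondria (-1.63, SE 0.24). Fgf21 was low, at a mean of 0.83 CPM over the BAT libraries of both genotypes (TMM scaled over all 48 libraries). Its call was lost in a fit to the 8 libraries alone and without any 1 of WT RT replicates 15 and 17 and WT TN replicates 1, 6 and 7 (edgeR adjusted p up to 0.202). Cpt1c, the brain form of the transferase, also low in BAT at a mean of 1.34 CPM, rose in WT (1.71, SE 0.51). That call was lost without WT RT replicate 17 or WT TN replicate 7 (edgeR adjusted p up to 0.0714). In KO they were those of Acsl3 (-1.96, SE 0.20), Hacl1, a peroxisomal lyase for branched chains (-1.55, SE 0.24), and Acacb, which makes the malonyl-CoA that restrains Cpt1 (-1.39, SE 0.20), and Eci3 rose (1.11, SE 0.24), a call lost without the libraries rich in muscle or in hepatocyte markers.

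**Figure D3:**
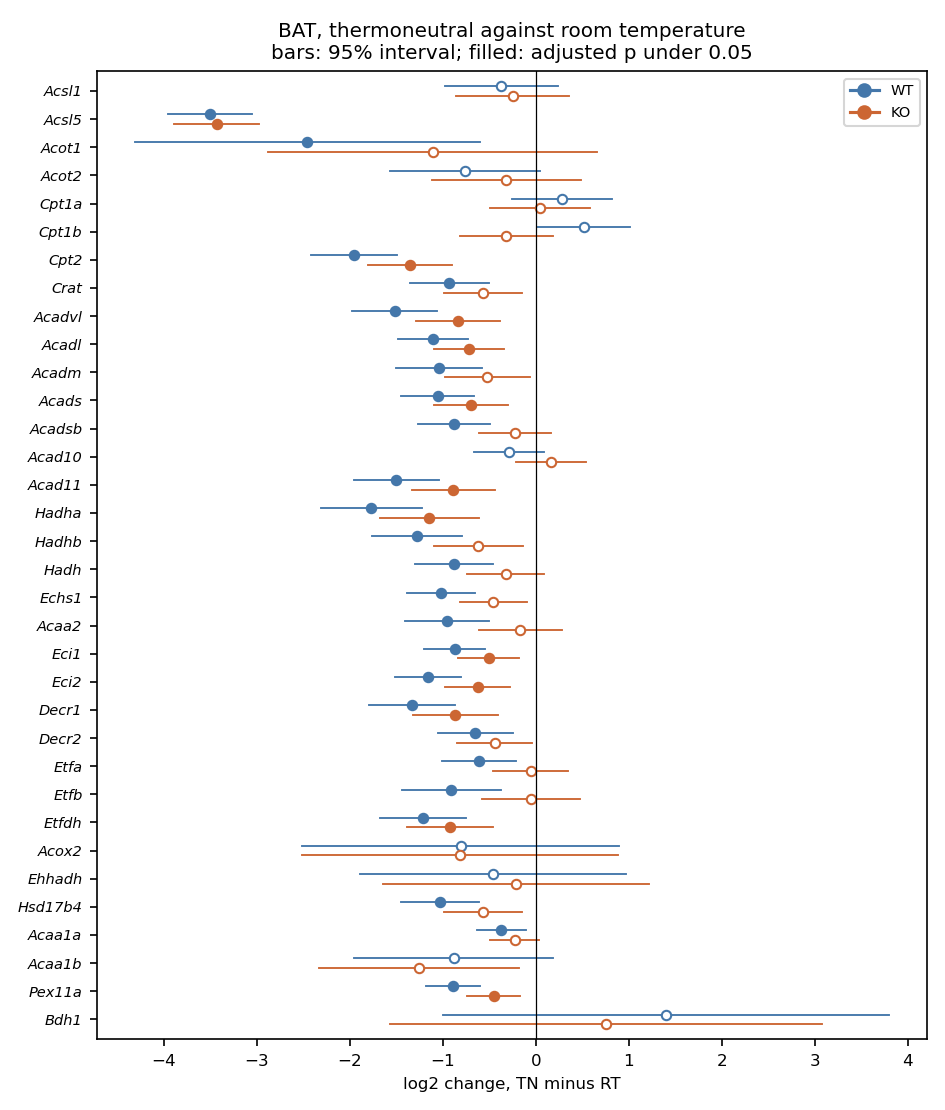
Log2 change (TN minus RT) of each of the 34 genes in BAT of WT and KO mice with its 95% interval from edgeR, filled where the adjusted p was under 0.05 (n = 4 per group). Acsl5 lies furthest to the left at -3.50 and -3.43, and 25 points are filled in WT and 12 in KO.

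Whether the deletion in hepatocytes bears on these genes in BAT was asked at each temperature. At RT none of the 34 members was called by edgeR, and 8 had an unadjusted p under 0.05, 1 higher and 7 lower in KO, where 19.4% of all genes had such a p and 0.0555% and 0.0333% were called higher and lower. DESeq2 called 3 members at RT, 1 higher and 2 lower, and 628 higher and 353 lower of all 18022 genes. Without WT RT replicate 12, edgeR called 3 members, and 1115 genes higher and 864 lower of 18710. The median log2 change (KO minus WT) was -0.26, against 0.00 over all genes, and the groups of 1 member did not overlap, with KO higher (5.29% of all genes, and 3.98% with KO lower). Cpt1b, with the lowest p, stood at 11.5, 9.08, 6.56 and 4.22 CPM in WT and at 14.9, 14.8, 14.3 and 19.5 CPM in KO, with no overlap (log2 change 1.01, SE 0.24, edgeR adjusted p 0.0839, not called). Muscle markers, given beside Cpt1b because muscle makes it, summed to 1.19 to 338 CPM in WT and to 2.09 to 3080 CPM in KO; the KO library with the most Cpt1b (replicate 9) had 183.2 CPM of them, and their part was not tested. Acaa2, the thiolase of the mitochondrial chain, stood at 2335, 4000, 3980 and 3711 CPM in WT and at 2085, 2177, 2466 and 2322 CPM in KO, with WT replicate 12 within the KO range (log2 change -0.63, SE 0.21, edgeR adjusted p 0.136, not called).

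At TN edgeR called no member, and none of all 18032 genes (0%); DESeq2 called no member either, and 2 members had an unadjusted p under 0.05, as had 5.24% of all genes. These were Etfb, a subunit of the electron transfer flavoprotein, at 108, 60.8, 69.1 and 95.1 CPM in WT and 129, 118, 130.4 and 149 CPM in KO (log2 change 0.66, edgeR adjusted p 0.85), and Eci1, an enoyl-CoA isomerase, at 401, 315, 343 and 350.3 CPM in WT and 363, 445, 464 and 555 CPM in KO (0.37, edgeR adjusted p 0.908). The Etfb groups did not overlap, as was so with KO higher for 1.62% and with KO lower for 1.76% of all genes, and the Eci1 groups overlapped. The interaction of genotype and housing had no called member by edgeR or DESeq2 and no called gene by edgeR (0%), with 8 members at an unadjusted p under 0.05, 7 positive and 1 negative, where 10.2% of all genes had such a p. Its lowest p among members belonged to Acaa2 (0.79, SE 0.30, edgeR adjusted p 0.47) and Acadsb (0.66, SE 0.26, edgeR adjusted p 0.47), a positive value meaning a smaller fall at TN in KO than in WT. The members' median was 0.45, against -0.01 over all genes, and the WT RT and KO RT libraries enter both the genotype and the housing comparisons.

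In the liver, the question was whether the loss of hepatocyte Agt went with other levels of these genes. At TN, 10 of the 34 members were lower in KO and none was higher (edgeR adjusted p under 0.05 over 17594 genes), where 1.85% of all genes were called lower and 1.34% higher. The estimate was below 0 for 29 of 34 members, their median log2 change (KO minus WT) was -0.36 against 0.05 over all genes, and 21 had an unadjusted p under 0.05 (17.6% of all genes). For 8 the KO libraries lay wholly below (6.22% of all genes) and for none wholly above (6.23%). At RT no member was called by edgeR (0.0682% of all genes called lower, 0.0171% higher), 9 had an unadjusted p under 0.05, all lower in KO, against 10.2% of all genes, and DESeq2 called 3, all lower, with 142 of all 17585 genes lower and 61 higher. The median at RT was -0.17, against 0.02 over all genes, and the KO libraries lay wholly below for 4 members (2.83% of all genes) and wholly above for none (3%).

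The peroxisomal genes held 4 of the 10 calls. Hsd17b4, the D-bifunctional enzyme, stood at TN at 648, 450.5, 686 and 602 CPM in WT and at 324, 324, 359.6 and 380.3 CPM in KO (log2 change -0.78, SE 0.13, edgeR adjusted p 0.00321). Ehhadh, the L-bifunctional enzyme, stood at 701, 450.2, 614 and 811 CPM in WT and at 367, 403, 364 and 331 CPM in KO (-0.81, SE 0.15, edgeR adjusted p 0.00626). The KO libraries of both genes lay wholly below the WT libraries. Pex11a stood at 205, 133, 312 and 299 CPM in WT and at 81, 147, 124 and 103 CPM in KO, overlapping at WT replicate 24 (-1.06, SE 0.28, edgeR adjusted p 0.0492). Acaa1b stood at 3091, 2510, 3675 and 3890 CPM in WT and at 2393, 2028, 2018 and 1491 CPM in KO, with no overlap (-0.73, SE 0.16, edgeR adjusted p 0.0154). Acox2 and Acaa1a were not called (-0.32 and -0.21).

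Activation, carnitine transfer and the release of coenzyme A held 3 of the calls. Cpt1a stood at TN at 864, 477, 671 and 787 CPM in WT and at 400.3, 421, 429 and 482 CPM in KO (log2 change -0.69, SE 0.15, edgeR adjusted p 0.0137). WT replicate 24, at 477 CPM, lay just under the highest KO library, and the other WT libraries lay above all KO libraries. Acot2, the mitochondrial acyl-CoA thioesterase, stood at 19.9, 8.77, 23.2 and 33.8 CPM in WT and at 7.31, 8, 8.97 and 8.89 CPM in KO, with WT replicate 24 inside the KO range (-1.37, SE 0.34, edgeR adjusted p 0.0308). Acot2 shares 17.1% of its 100-base transcript windows with Acot1, which was not called (-0.73). Acsl1 was lower in KO, with a log2 change of -0.74 (SE 0.18, edgeR adjusted p 0.0266), with values of 954 to 2125 CPM in WT and 844 to 1214 CPM in KO. Crat stood at 100, 49.4, 108 and 137 CPM in WT and at 56.8, 49.8, 48.2 and 55.1 CPM in KO and was not called (-0.91, edgeR adjusted p 0.0634).

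The chain itself and electron transfer held the other 3 calls. Hadha stood at TN at 502, 326, 411 and 475 CPM in WT and at 317, 273, 259.8 and 289.9 CPM in KO, with no overlap (log2 change -0.59, SE 0.13, edgeR adjusted p 0.019). Acad11, a dehydrogenase for hydroxylated acids, stood at 534, 371, 506 and 465 CPM in WT and at 285, 301, 292 and 297 CPM in KO, with no overlap (-0.68, SE 0.13, edgeR adjusted p 0.00626). Etfdh was also lower (-0.52, SE 0.13, edgeR adjusted p 0.0322). Acadm stood at 608, 355, 587 and 597 CPM in WT and at 404, 416, 378 and 392 CPM in KO and was not called (-0.43, edgeR adjusted p 0.14), with WT replicate 24 below every KO library. The 4 enzymes for unsaturated chains had no call. Bdh1 stood at 294, 197, 294 and 329 CPM in WT and at 214, 195, 199 and 221 CPM in KO and was not called (-0.43, edgeR adjusted p 0.151), and Etfb had the opposite sign (0.54, edgeR adjusted p 0.136).

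Hsd17b4 and Cpt1a also had the lowest p among members at RT, without being called. Hsd17b4 stood at RT at 594, 535, 574 and 518 CPM in WT and at 371, 387, 365 and 418 CPM in KO (log2 change -0.53, SE 0.13, edgeR adjusted p 0.126). Cpt1a stood at 533, 477, 530.0 and 487 CPM in WT and at 293, 367, 354 and 331 CPM in KO (-0.59, SE 0.15, edgeR adjusted p 0.126). Both separated the genotypes without overlap at RT. Over the alternatives the adjusted p at RT ran from 0.00673 to 0.288 for Hsd17b4 and from 0.0144 to 0.27 for Cpt1a.

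The calls at TN depended on single libraries of either genotype. Leaving out WT TN replicate 24, which was low for most members, gave 15 called members, and leaving out WT TN replicate 7 gave 4, WT TN replicates 1 or 6 gave 5, KO TN replicate 4 gave 5 and KO TN replicate 2 gave 6, all lower in KO. Over all genes the lower calls numbered 317 without WT TN replicate 24, 180 without WT TN replicate 7, 151 and 140 without WT TN replicates 1 and 6, and 119 and 163 without KO TN replicates 4 and 2, against 325 with all libraries. Hsd17b4, Ehhadh, Cpt1a and Acad11 were called in every alternative tried, while Pex11a lost its call in 10 of them, RLE scaling included, Acsl1, Acot2 and Etfdh in 7 each, Hadha in 3 and Acaa1b in 2. Each of the 4 KO TN libraries (replicates 2, 4, 5 and 22) and of WT TN replicates 1, 6 and 7 ended at least 1 of these calls when left out, with adjusted p up to 0.135. Macrophage markers summed to 97.0 to 241 CPM in KO and 73.6 to 83.8 CPM in WT at TN, and hepatocyte markers to 67800 to 85700 CPM in KO and 62500 to 82200 CPM in WT, and their part in the result was not tested. Of 46 other pathway genes tested in liver at TN, 5 were lower in KO and none higher (1.85% and 1.34% of all genes), among them Slc16a1, a carrier of ketone bodies and lactate (-0.96, SE 0.23), and Plin5, a lipid droplet protein of oxidative cells (-0.81, SE 0.18). Their calls were lost in 6 and 3 alternatives that each left out 1 library, WT TN replicates 1 and 7 in both. None of the 46 was called at RT.

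**Figure D4:**
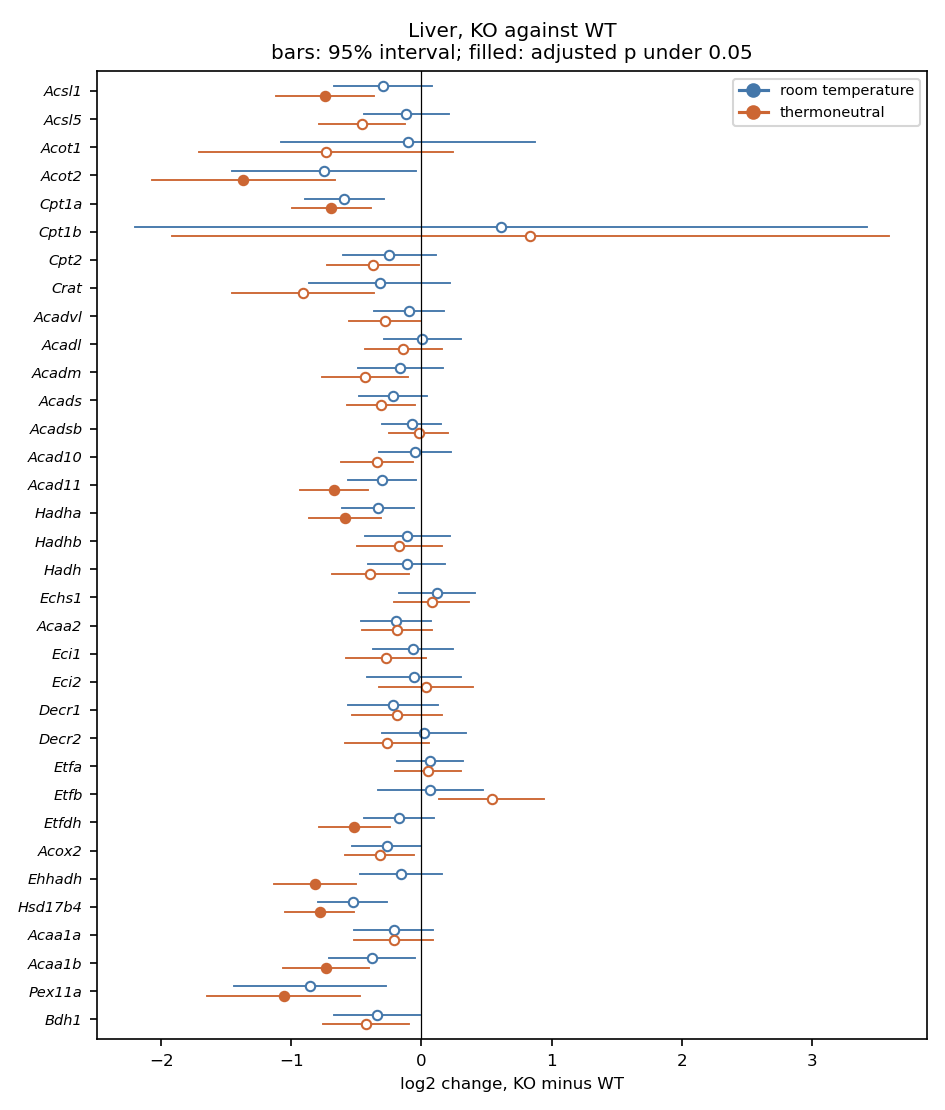
Log2 change (KO minus WT) of each of the 34 genes in liver at RT and at TN with its 95% interval from edgeR, filled where the adjusted p was under 0.05 (n = 4 per group). The 10 filled points are at TN and below 0, and no point at RT is filled.

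Housing temperature by itself gave no called member in liver. In WT, 9 members had an unadjusted p under 0.05, all higher at TN, where 7.25% of all genes had such a p, 0% were called higher and 0.0227% lower, and DESeq2 called 1 member, higher at TN, with 33 higher and 42 lower of 17585 genes. The groups of 1 member did not overlap, with TN higher (2.21% of all genes, and 1.73% with TN lower), and leaving out WT TN replicate 24 gave 4 called members, all higher at TN, and 13 higher calls over 18145 genes. Acot2 stood in WT at 7.16, 6.14, 9.15 and 11.2 CPM at RT and at 19.9, 8.77, 23.2 and 33.8 CPM at TN, overlapping at replicate 24 (log2 change 1.35, SE 0.34, edgeR adjusted p 0.222). Acad10 stood at 39.4, 34.2, 47.2 and 49.4 CPM at RT and at 60.7, 51.7, 57.3 and 59.9 CPM at TN, with no overlap (0.43, SE 0.13, edgeR adjusted p 0.4). In KO, 2 members had an unadjusted p under 0.05, both higher at TN, where 10.5% of all genes had such a p, 0.102% were called higher and 0.0114% lower, and DESeq2 called none. The groups of 3 members did not overlap in KO, 1 higher and 2 lower at TN (4.35% and 2.9% of all genes). The 2 with the lowest p were Cpt1a (0.37, SE 0.15, edgeR adjusted p 0.347), whose KO libraries at RT lay below all those at TN, and Acot2 (0.73, SE 0.34, edgeR adjusted p 0.457).

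The interaction of genotype and housing in liver, which asks whether the KO difference at TN exceeds that at RT, had no called member by edgeR or DESeq2 and no called gene by edgeR (0%). Ehhadh had the lowest p (log2 -0.66, SE 0.21, unadjusted p 0.00565, edgeR adjusted p 0.5), followed by Acad11 (-0.37, SE 0.18, edgeR adjusted p 0.678), and these were the 2 members with an unadjusted p under 0.05, where 7.33% of all genes had one. Ehhadh at RT stood at 427, 493, 517 and 405 CPM in WT and at 418, 347, 421 and 463 CPM in KO, with the groups mixed. A difference between the temperatures in the effect of genotype was therefore not shown for any member.

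In eWAT, 4 members rose in KO at RT and none fell. These counts compare with 1.2% of all 18933 genes called higher and 3.13% lower, and the members' median log2 change was 0.27 against -0.00 over all genes. For 9 members all KO libraries lay above all WT libraries and for 2 below, against 3.98% and 6.89% of all genes. Etfb stood at 28.9, 28.2, 23 and 20.8 CPM in WT and at 53.4, 30.3, 39.9 and 39.3 CPM in KO (log2 change 0.69, SE 0.17, edgeR adjusted p 0.0241). Echs1, the mitochondrial enoyl-CoA hydratase, stood at 281, 299, 252 and 281 CPM in WT and at 479, 319, 429 and 365 CPM in KO (0.52, SE 0.14, edgeR adjusted p 0.0405). The groups of both genes were separate, with KO replicate 16 the nearest to WT in each.

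Both other calls were acyl-CoA dehydrogenases. Acadsb, which acts on short branched chains, stood at 231, 233, 245 and 227 CPM in WT and at 347, 283, 332 and 339.6 CPM in KO (log2 change 0.48, SE 0.11, edgeR adjusted p 0.0205). Acadvl stood at 182, 210.0, 202 and 189.6 CPM in WT and at 278, 233, 287 and 282 CPM in KO (0.46, SE 0.11, edgeR adjusted p 0.0236). The 4 WT libraries of each lay close together and below every KO library. Cpt1a ran the other way without being called, at 125, 143, 147 and 179 CPM in WT and 72.9, 124, 115 and 90.6 CPM in KO, with no overlap (-0.56, SE 0.18, edgeR adjusted p 0.086). In all, 14 members had an unadjusted p under 0.05, 12 higher and 2 lower in KO, where 17.7% of all genes had such a p.

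These calls were not stable to single libraries. No member was called without KO RT replicate 19 or without WT RT replicate 18, 2 were without KO RT replicate 10, 7 without KO RT replicate 16, and DESeq2 called 9, 8 higher and 1 lower. Over all genes the calls were 89 higher and 285 lower without KO RT replicate 19, 79 and 208 without WT RT replicate 18, 158 and 294 without KO RT replicate 10, 363 and 461 without KO RT replicate 16, and 601 and 908 by DESeq2, against 228 and 593. Echs1 also lost its call in a fit to the 8 libraries alone and without WT RT replicates 12, 13 or 15, and Etfb without WT RT replicate 15. Hepatocyte markers in eWAT summed to 103 to 4140 CPM in KO and 37.1 to 1350 CPM in WT at RT, and without the 5 eWAT libraries above 1000 CPM of them (KO RT replicates 16 and 19, WT RT replicates 13 and 18, WT TN replicate 8) no member was called, nor was any of all 20065 genes, of which 2544 had an unadjusted p under 0.05. In that smaller fit the log2 changes were 0.85 for Etfb (SE 0.22), 0.68 for Echs1 (SE 0.20), 0.54 for Acadsb (SE 0.16) and 0.55 for Acadvl (SE 0.16), each larger than with all libraries and with a larger SE. Macrophage markers summed to 369 to 559 CPM in KO and 511 to 807 CPM in WT, and general adipocyte markers to 23700 to 37100 CPM in KO and 18600 to 23600 CPM in WT. Epididymis markers summed to 0.382 to 929 CPM in WT (median 6.4) and to at most 4.47 CPM in KO. The part of these markers in the result was not tested. Bdh1 and Acox2, which had their highest mean level in liver, were highest among eWAT libraries in KO RT replicate 16 (15.2 and 19.2 CPM). This library had 4140 CPM of hepatocyte markers. Acot1 (6.09 CPM) and Acaa1b (209.6 CPM) were also highest there. The relation of these genes to the markers over the other libraries was not tested. Of 47 other pathway genes tested, 3 rose and 1 fell in KO at RT (1.2% and 3.13% of all genes): Ppargc1a, a coactivator of mitochondrial genes (1.30, SE 0.31), Ivd, of leucine breakdown (0.77, SE 0.18), and Esrra, a nuclear receptor that acts with Ppargc1a (0.44, SE 0.12), rose, and Acox3 fell (-0.48, SE 0.10). These calls were lost in 5, 2, 9 and 3 alternatives in that order, each of them without WT RT replicate 18 among others.

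**Figure D5:**
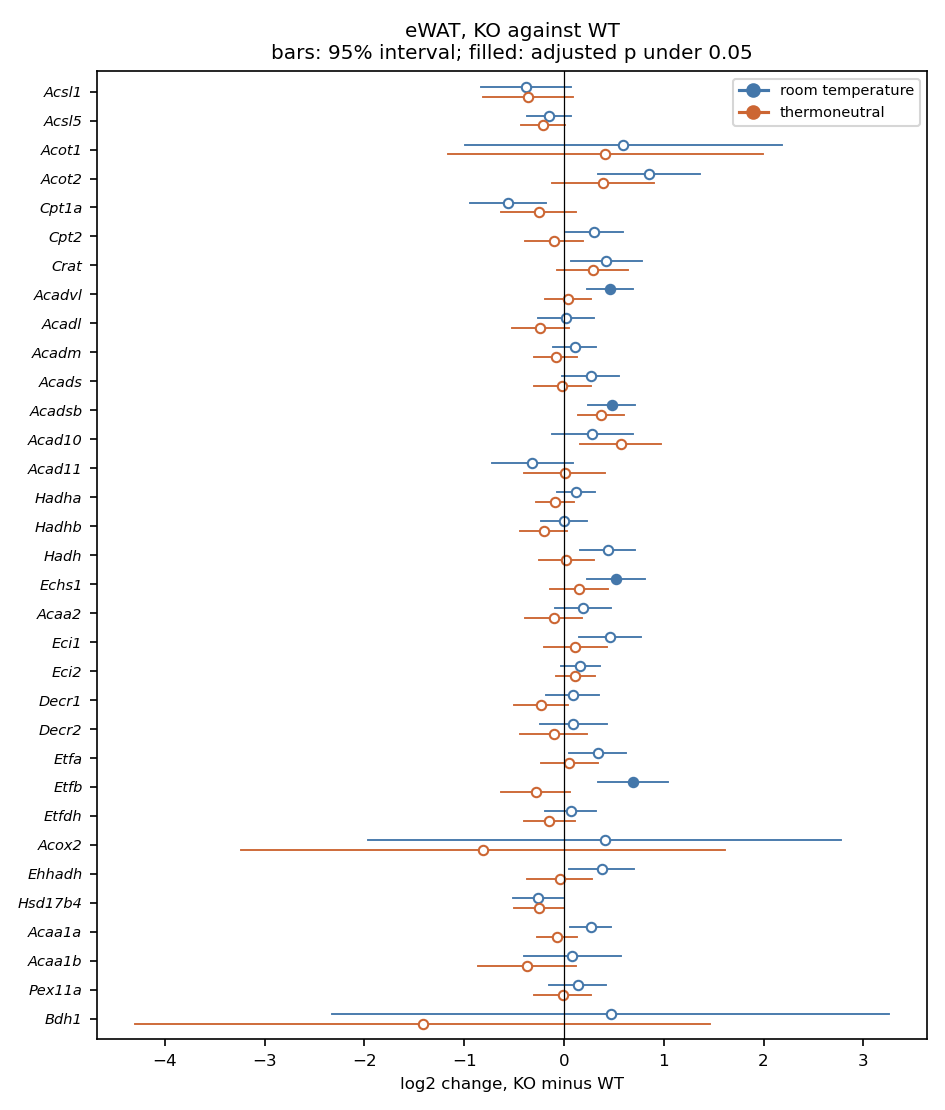
Log2 change (KO minus WT) of the 33 genes tested in eWAT at RT and at TN with its 95% interval from edgeR, filled where the adjusted p was under 0.05 (n = 4 per group). The 4 filled points, Etfb, Echs1, Acadsb and Acadvl, are at RT and above 0.

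At TN no member was called between the genotypes in eWAT by edgeR (0.174% and 0.412% of all genes called higher and lower), 2 had an unadjusted p under 0.05, both higher in KO, against 13.7% of all genes, and DESeq2 called 1, higher, with 221 higher and 454 lower of 18880 genes. The groups of 2 members did not overlap, 1 higher and 1 lower in KO (4.57% and 4.94% of all genes). Acadsb stood at 199, 186, 186 and 225 CPM in WT and at 227, 245, 243 and 317 CPM in KO (log2 change 0.37, SE 0.11, edgeR adjusted p 0.115), with the lowest KO library just above the highest WT library. Acad10 stood at 11.7, 9.64, 11 and 8.56 CPM in WT and at 11.2, 14.2, 12.9 and 22.6 CPM in KO, with overlap (0.57, SE 0.19, edgeR adjusted p 0.186).

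Housing in eWAT gave no called member in WT, with no called gene (0%) by edgeR, no member called by DESeq2, and 3 members at an unadjusted p under 0.05, all lower at TN, against 6.99% of all genes. For 3 members the TN libraries in WT lay wholly below (1.79% of all genes) and for none wholly above (2.31%). The lowest p belonged to Pex11a, at 79.6, 88, 68.1 and 72.8 CPM at RT and 57, 63.4, 62.5 and 53.4 CPM at TN, with no overlap (log2 change -0.39, SE 0.14, edgeR adjusted p 0.505), and to Acad10, at 13.9, 13.7, 14.6 and 15.7 CPM and 11.7, 9.64, 11 and 8.56 CPM, with no overlap (-0.50, SE 0.19, edgeR adjusted p 0.578). In KO, 4 members fell at TN and none rose, where 0.718% of all genes were called lower and 1.02% higher, with a median of -0.33 against 0.02, and 22 members had an unadjusted p under 0.05, all lower, against 17.5% of all genes. For 8 the TN libraries in KO lay wholly below (3.58% of all genes) and for none wholly above (5.67%). Etfb stood in KO at 53.4, 30.3, 39.9 and 39.3 CPM at RT and at 22.5, 17.5, 24.1 and 26.1 CPM at TN (-0.85, SE 0.17, edgeR adjusted p 0.022). Ehhadh stood at 128, 81.4, 79.7 and 77.2 CPM and at 56.6, 44.8, 58.4 and 61.4 CPM (-0.73, SE 0.16, edgeR adjusted p 0.0293). The groups of both genes were separate, and Ehhadh had 1 high library at RT, replicate 10.

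The remaining calls in KO were Acadvl, at 278, 233, 287 and 282 CPM at RT and 169, 158, 189.6 and 220.2 CPM at TN (log2 change -0.55, SE 0.11, edgeR adjusted p 0.0242), and Acaa1a, at 186, 165, 195 and 181 CPM and 131, 117, 142 and 146 CPM (-0.44, SE 0.10, edgeR adjusted p 0.0313). Neither gene's groups overlapped. The KO libraries at RT are the same ones that entered the genotype comparison, so the higher level of Etfb and Acadvl there enters both results. No member was called without KO RT replicate 10 or 19 or KO TN replicate 3 or 21, 1 was without KO TN replicate 4, 13 were without KO TN replicate 5 and 14 without KO RT replicate 16. Over all genes the lower calls numbered 43 and 8 without KO RT replicates 10 and 19, 0 and 28 without KO TN replicates 3 and 21, 34 without KO TN replicate 4, 232 without KO TN replicate 5 and 380 without KO RT replicate 16, against 136 with all libraries. The count was also 0 in a fit to only the 8 libraries compared and without the libraries above 1000 CPM of hepatocyte markers, where none of all 17170 and 20065 genes was called (3018 and 3169 at an unadjusted p under 0.05). The log2 changes of the 4 members ran from -0.88 to -0.47 and from -1.05 to -0.46. The count of called members was 8 where genes needed 1 CPM or more in 4 libraries to be tested, and 16 by DESeq2 (553 lower of 18880 genes), each lower at TN. Cell type markers also moved with housing in these KO libraries. Brown adipocyte markers summed to 21.6 to 34.7 CPM at RT and 9.73 to 14.0 CPM at TN, macrophage markers to 369 to 559 CPM and 561 to 731 CPM, in both cases with no overlap. Hepatocyte markers summed to 103 to 4140 CPM and 50.9 to 442 CPM with overlap. In WT, macrophage markers summed to 511 to 807 CPM at RT and 842 to 1550 CPM at TN, and the part of these markers in the housing results of either genotype was not tested. Of 47 other pathway genes, Mlycd, which removes malonyl-CoA (-0.49, SE 0.12), and Esrra (-0.48, SE 0.12) fell and none rose. These calls were lost in 8 and 10 alternatives, among them without KO RT replicates 9, 10 or 19 or KO TN replicates 3, 4 or 21. The interaction in eWAT had no called member by edgeR or DESeq2 and no called gene by edgeR (0%), with 4 members at an unadjusted p under 0.05 (7.6% of all genes), and its lowest p among members belonged to Etfb (-0.98, SE 0.23, edgeR adjusted p 0.553) and Acadvl (-0.42, SE 0.16, edgeR adjusted p 0.601).

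Whether the response to housing differed between tissues was tested directly in the fit over 48 libraries, with both genotypes averaged. For 23 members the log2 change at TN was lower in BAT than in liver and for none higher (9.76% and 7.02% of all genes), with a median difference of -0.82 against 0.07. Against eWAT it was lower for 15 and higher for none by edgeR (8.49% and 7.99% of all genes), with a median of -0.44 against 0.10. DESeq2 called 16 members lower and 2 higher against eWAT. With a block for replicate numbers, edgeR called 21 lower against liver and 10 against eWAT, and none higher. Acsl5 had the largest difference in both comparisons, -3.69 against liver (SE 0.16, edgeR adjusted p 9.21e-21) and -3.51 against eWAT (SE 0.16, edgeR adjusted p 6.02e-20). Acsl5 was at 517.5 ± 113.7 CPM over the 16 liver libraries and at 73.1 ± 8.04 CPM over those of eWAT (SD), on the scale of all 48 libraries, and its changes with housing in those tissues, between 0.02 and 0.41, were not called.

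Cpt2 differed by -1.62 (SE 0.19) from liver and by -1.31 (SE 0.19) from eWAT, and Hadha by -1.44 (SE 0.18) and -1.22 (SE 0.18), each called. Acot1 and Acot2 differed from liver by -2.68 (SE 0.71) and -1.56 (SE 0.35) and were not called against eWAT. The call of Acot1 was lost with the replicate block (edgeR adjusted p 0.0839). Cpt1a was not called in either (-0.24, SE 0.21, and -0.00, SE 0.22). The BAT libraries enter both comparisons, so they are not independent. Of the 48 other pathway genes, 21 were lower in the comparison with liver (9.76% of all genes) and 14 in that with eWAT (8.49%), and none was higher. By tissue, liver exceeded BAT for 23 of these 48 and fell below it for 18 (31.6% and 37% of all genes), liver exceeded eWAT for 35 and fell below it for 9 (35.5% and 38.3%), and BAT exceeded eWAT for 30 and fell below it for 7 (29.2% and 31.1%).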

How the data were processed

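RNA sequencing libraries of liver, BAT and eWAT were analysed from the raw count per gene that the authors deposited for each library. Per the labels' protocols, RNA was purified with a Maxwell RSC kit, libraries were built with NEBNext Ultra chemistry and sequenced as read pairs on a NovaSeq. Per the submitters' processing notes, fastp, STAR 2.6.1d and featureCounts 1.5.0-p3 were used with GRCm38 (mm10). The annotation release and strand setting are not given in the sources used here, so reads of overlapping genes on opposite strands may not have been told apart. Symbols came from GENCODE names, which matched 52073 of 56748 identifiers (91.8%) and held 94.8% to 99.8% of the counts of a library. No 2 libraries of a group agreed within sampling noise (72 pairs, chi-square per degree of freedom at least 17.14).

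The 16 libraries of each tissue were fitted together with edgeR 4.0.16 under R 4.3.3 (1 mean per group, genes kept by filterByExpr at a minimum count of 10, totals scaled by TMM, the trimmed mean of M values, robust quasi-likelihood F test), and tissues were compared in 1 fit over 48 libraries. P values, two-sided, received a Benjamini-Hochberg adjustment across every gene tested, 17594 in liver, 18032 in BAT, 18933 in eWAT and 21910 in the joint fit, and a gene was called at an adjusted p under 0.05. SE are on the log2 scale. At these depths 3 counts correspond to 0.0687 to 0.1265 CPM, and precision is limited by the number of animals. The fit was tested on simulated data.

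The members and lists were chosen with earlier results of these data known. Values per library are given for 12 members set by rule, and in each comparison for up to 4 called members per direction with the largest change, or else the 2 with the lowest p, and for up to 3 other pathway genes per direction. Library values of Acsl1 in liver and Acox2 in eWAT were added after they were seen. Alternatives were DESeq2 1.42.0, RLE scaling, a block for replicate numbers across tissues, fits without any 1 library or to just the 8 libraries of a comparison, no filter, a floor of 1 CPM in 4 or more libraries and, chosen after seeing the data, leaving out BAT or eWAT libraries with over 1000 CPM of summed muscle or hepatocyte markers. Promoters were not in the table for 5 members, 2 of which lie on a chromosome whose sequence is not used here.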

Additional observations from a re-analysis of the deposited data

Results flagged for a closer look

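The effect of housing differed between tissues by a direct test. Against liver, 23 members had a lower log2 change at TN in BAT, led by Acsl5 (-3.69), Acot1 (-2.68), Cpt2 (-1.62) and Acot2 (-1.56); the call of Acot1 was lost with the replicate block (edgeR adjusted p 0.0839). Against eWAT, 15 members did by edgeR, led by Acsl5 (-3.51), Cpt2 (-1.31), Hadha (-1.22) and Acad11 (-1.12). DESeq2 called 16 members lower and 2 higher in that comparison.

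Single libraries stood apart from the other 3 of their group by Dixon's test in 15 of 168 groups scanned. For independent groups of normally scattered values, chance alone gives about 5%. The groups scanned share libraries, and the summed level contains the members. A group with counts in a single library, as for Cpt1b in eWAT, is flagged by construction. The 15 can therefore not be judged against that rate. In BAT, 7 of these were in WT at TN or in Cpt1b of KO at RT: the highest WT library at TN had a summed member level of 23730 CPM, with 2007 CPM of Acadm, 1983 CPM of Acadl and 229 CPM of Ehhadh; it is replicate 24, which also held 15.2 CPM of Acaa1b, the lowest of the group. Pex11a was low in WT TN replicate 6 (38.6 CPM), and Cpt1b was high in KO RT replicate 9 (19.5 CPM).

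In liver, Acadm was low in WT TN replicate 24 (354.9 CPM) and Acadl was low in 1 WT library at RT (176.7 CPM). In eWAT, KO RT replicate 16 had a higher total than the others of its group (33.2 megacounts), Cpt1a was high in WT TN replicate 23 (183.5 CPM), Ehhadh was high in KO RT replicate 10 (127.7 CPM), and Bdh1 was high in WT TN replicate 8 (10.4 CPM), a library with 1370 CPM of hepatocyte markers. Cpt1b had counts in 1 eWAT library of KO at RT (0.681 CPM) and in 1 of WT at RT (0.111 CPM).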

How the results depend on the processing

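The counts of called members stayed within 1.5 times in BAT housing in WT (21 to 26 over the fits that each leave out 1 library), in the tissue comparisons (34 for liver and BAT, 31 to 32 for liver and eWAT, 28 to 29 for BAT and eWAT) and in the housing effect of BAT against liver (23 to 25). Leaving out 1 library gave 13 to 16 for the housing effect of BAT against eWAT, 8 to 15 for BAT housing in KO, 4 to 15 for the liver genotype effect at TN (4 without WT TN replicate 7, 15 without WT TN replicate 24), 0 to 7 for the eWAT genotype effect at RT (0 without KO RT replicate 19 or WT RT replicate 18, 7 without KO RT replicate 16) and 0 to 14 for eWAT housing in KO (0 without KO RT replicate 10 or 19 or KO TN replicate 3 or 21, 14 without KO RT replicate 16). From 0 calls it gave up to 4 for liver housing in WT (without WT TN replicate 24) and up to 3 for the BAT genotype effect at RT (without WT RT replicate 12). DESeq2 gave 3 for the liver genotype effect at RT, 1 for liver housing in WT, 3 for the BAT genotype effect at RT, 9 and 1 for the eWAT genotype effect at RT and TN, and 16 for eWAT housing in KO. That last count was 8 with at least 1 CPM in 4 libraries and 0 in a fit to only the 8 libraries compared, where fewer samples enter. Chosen after seeing the data, leaving out libraries rich in muscle markers gave 4 for BAT housing in KO, and leaving out those rich in hepatocyte markers gave 5 there and 0 for both the eWAT genotype effect at RT and eWAT housing in KO, where no gene at all was called; over all genes the lower calls of BAT housing in KO dropped from 1537 to 703 and 561 in these fits. These fits differ in the number of libraries, in foreign tissue and in the animals left out, and the part of each was not tested. Alternatives were followed gene by gene for 146 results. These were the members called in a main fit within a tissue, the genes named in a comparison, and Agt in liver. Of their 4141 values under alternatives, none changed sign while called, 204 lost their call and 9 gained one. Most uncalled members were not followed in this way, so the 9 does not count the gains among all members. Genes with few counts, such as Bdh1 and Acot1 in fat, are limited by depth and by scatter between libraries.

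Replicate numbers recur across tissues. Each number occurs within a single combination of genotype and housing, and the labels do not say that it marks 1 mouse. Of 35 pairs with the same number, 1 had a correlation of deviations over 0.1 (median 0.0066). In 19 of 70 matches of a library with the 4 libraries of its combination in another tissue, the own number correlated best. Correlations across different tissues cannot decide whether 1 mouse gave both, so the pairing stayed unknown. The main fits treated the libraries as unpaired. With the replicate block, the tissue comparisons gave 34, 31 and 28 members. The housing effect gave 21 against liver and 10 against eWAT, where the fit without the block gave 23 and 15. No paired analysis was possible within a tissue because the groups compared there share no replicate numbers.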
